A study of Mus musculus with 8 samples.

Results

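The genes described here make the red cell: the enzymes and transporters of haem synthesis, the proteins of the red cell membrane and its skeleton, the blood group antigens, and the factors that commit a progenitor to the erythroid lineage. They are a list of 35 mouse symbols, matched by name to the 52636 Ensembl genes of the count table. A row was found for 34 of them. Ahsp, the chaperone of free alpha globin, was not analysed here. Icam4 (ENSMUSG00000001014.6), a red cell adhesion molecule, had 0 counts in all 8 libraries, and 33 genes passed the filter on low counts.

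Haem is built in a chain of enzymatic steps that starts and ends in the mitochondrion. In erythroid cells the first step is made by Alas2, iron enters through the carrier mitoferrin 1 (Slc25a37), and ferrochelatase (Fech) inserts the iron. The membrane of the red cell rests on a spectrin lattice that ankyrin (Ank1) and protein 4.2 (Epb42) tie to band 3, the anion exchanger Slc4a1. Gata1, Klf1 and Tal1 are transcription factors that switch these genes on, and Epor receives the erythropoietin signal. In the mouse the spleen makes red cells alongside the bone marrow and does so on a larger scale under stress.

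Whole spleens of 6-week-old C57BL/6 mice were sequenced as RNA, in 4 groups of 2 libraries. Irradiated mutants carried the R527C substitution in Lmna, the lamin A and C gene, and were sampled 7 days after 4 Gy. Unirradiated mutants carried the same substitution, received no dose and are labelled day 0. Irradiated wild type and unirradiated wild type had the same doses and days without the substitution. The labels do not say whether the mutants were heterozygous or homozygous, nor the sex or litter of any animal. Whole organs were used, so more erythroid cells and more RNA per erythroid cell cannot be told apart. No label says that the libraries of a group came from separate animals, and p-values then measure only the spread between these libraries.

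Libraries held 12100784 to 19455470 counts. Levels are given as CPM, counts relative to library sizes scaled by the TMM method. A count of 0 allows up to 3 counts, a floor that was at most 0.350 CPM and covers counting error only. Lmna was at 284 and 57.7 CPM in irradiated mutants, 86.9 and 86.3 CPM in unirradiated mutants, 213 and 113 CPM in irradiated wild type and 108 and 81.3 CPM in unirradiated wild type, and the allele changes the protein's sequence, so this level does not check the labels. Sex-linked transcripts split with irradiation: Xist was at 1029 to 1776 CPM in the irradiated libraries and at most 0.262 CPM in the unirradiated ones, and 4 Y-linked genes had no counts in any irradiated library. Irradiation, day and this split cannot be told apart. Alas2 and Gata1 lie on the X chromosome.

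One pair of libraries stood apart in these genes before any comparison. The levels of the 33 tested genes were a median of 11.3-fold higher in irradiated mutant replicate 1 than in irradiated mutant replicate 2, and all 33 differed by more than 2-fold, against 42.7% of all 17327 genes tested. Replicate 1 had the highest level of the 8 libraries for 32 of the 33, and replicate 2 the lowest for 28. The corresponding medians were 1.16-fold in unirradiated mutant libraries, 1.53-fold in irradiated wild type libraries and 1.35-fold in unirradiated wild type libraries. Replicate 1 was the higher of the pair for 33, 27, 30 and 31 of the 33 genes in irradiated mutants, unirradiated mutants, irradiated wild type and unirradiated wild type. The genes summed to 59277 and 5707 CPM in irradiated mutants, 9691 and 8066 CPM in unirradiated mutants, 36622 and 26404 CPM in irradiated wild type and 11216 and 9139.6 CPM in unirradiated wild type. Medians over the 33 genes for irradiation in mutants, and for the irradiated genotypes, are therefore also given without each of these libraries. Other fold changes in irradiated mutants rest on both libraries unless stated.

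**Figure D1:**
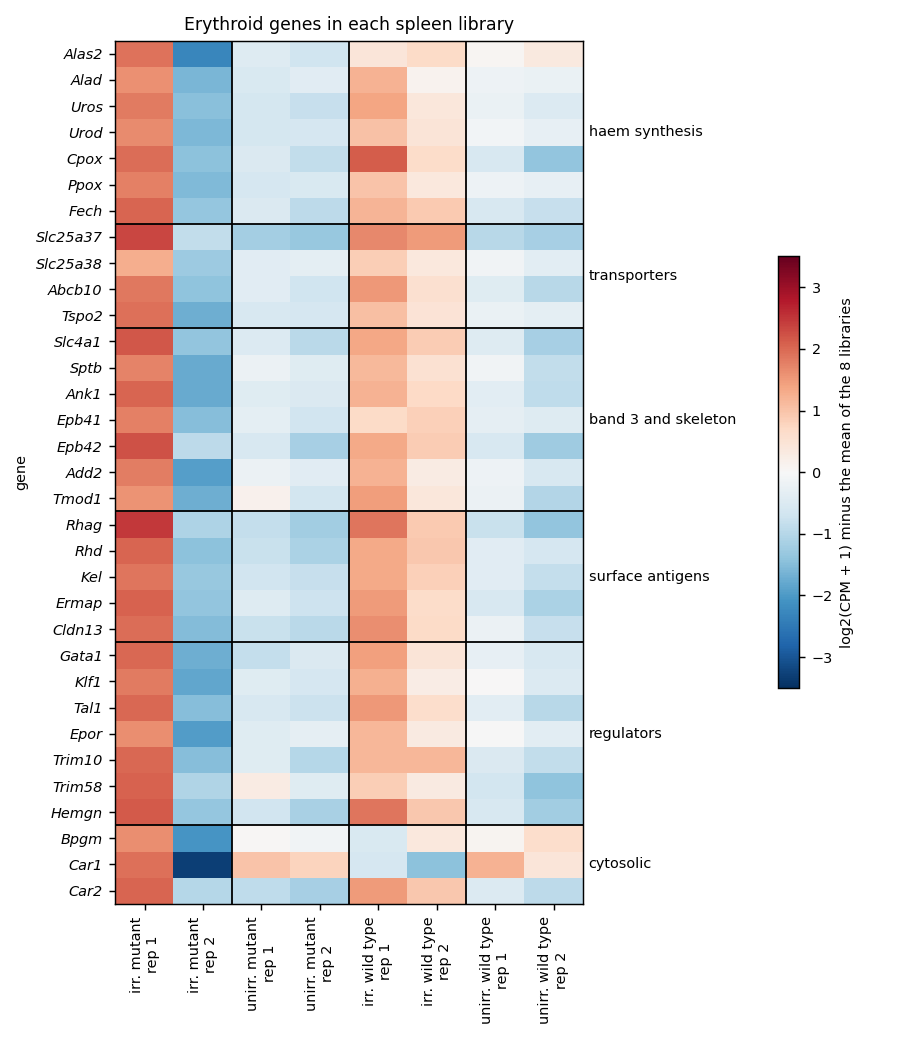
Level of each of the 33 tested genes (rows, by role) in each of the 8 libraries (columns), as log2(CPM + 1) minus the gene's mean over the 8 libraries. Irradiated mutant replicate 1 is the highest library for 32 genes and replicate 2 the lowest for 28, while both irradiated wild type libraries lie above all unirradiated libraries for 31.

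Promoters were read from RefSeq for 27 of the 34 genes (32 promoters, GRCm38.p6), as 250 bases before to 50 bases after each start. Fech, Slc25a37, Slc4a1, Ank1, Car1, Car2 and Cldn13 had no entry. The word NGATAN with A or T as its first base and A or G as its last, which GATA factors can bind, was searched on both strands and was found in 19 of the 32 promoters (59.4%), against 29.8% of all 32851 promoters of this length. CCNCNCCC, a word that factors of the Klf family can bind, was found on either strand in 21 (65.6%, against 49.5%). Both were present in 9 (28.1%, against 10.2%). A match is a description of letters, not a binding site.

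The promoters of 5 genes are printed because the results below turn on their genes: the regulators Gata1 and Klf1, the haem gene Alas2 and the late gene Bpgm, both of which departed from the rest, and the antigen Rhag, which lay near the top in both genotypes. Each is the 250 bases before the start on the gene's strand, 5′ to 3′, with matches to the GATA words or to CCNCNCCC in capitals. Klf1, Alas2 and Rhag each had 1 GATA match, which began 80, 86 and 31 bases before the start. Gata1 had 3 matches to CCNCNCCC, Alas2 had 4 that overlap one another in part, and Bpgm had 1 and no GATA word.
Gata1 (chrX:7967911-7968160, minus strand): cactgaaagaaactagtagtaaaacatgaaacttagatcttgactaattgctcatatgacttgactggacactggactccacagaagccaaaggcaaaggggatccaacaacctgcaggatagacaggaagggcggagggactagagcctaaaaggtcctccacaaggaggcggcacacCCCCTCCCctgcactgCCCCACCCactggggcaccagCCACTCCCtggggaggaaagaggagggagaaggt
Klf1 (chr8:84901732-84901981, plus strand): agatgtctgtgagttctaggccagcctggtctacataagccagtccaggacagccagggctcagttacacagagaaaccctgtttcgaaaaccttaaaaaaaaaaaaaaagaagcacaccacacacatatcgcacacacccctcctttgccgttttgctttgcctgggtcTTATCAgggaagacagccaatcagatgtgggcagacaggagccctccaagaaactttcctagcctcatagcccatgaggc
Alas2 (chrX:150547167-150547416, plus strand): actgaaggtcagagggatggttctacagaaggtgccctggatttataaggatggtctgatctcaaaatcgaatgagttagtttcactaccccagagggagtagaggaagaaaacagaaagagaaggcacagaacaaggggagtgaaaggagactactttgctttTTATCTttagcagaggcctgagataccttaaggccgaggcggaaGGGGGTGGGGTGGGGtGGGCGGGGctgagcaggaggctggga
Bpgm (chr6:34476106-34476355, plus strand): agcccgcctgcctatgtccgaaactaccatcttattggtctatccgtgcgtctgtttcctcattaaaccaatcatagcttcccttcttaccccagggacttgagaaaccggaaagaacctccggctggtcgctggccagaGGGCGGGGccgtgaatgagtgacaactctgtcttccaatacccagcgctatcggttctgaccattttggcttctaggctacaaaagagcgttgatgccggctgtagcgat
Rhag (chr17:40810899-40811148, plus strand): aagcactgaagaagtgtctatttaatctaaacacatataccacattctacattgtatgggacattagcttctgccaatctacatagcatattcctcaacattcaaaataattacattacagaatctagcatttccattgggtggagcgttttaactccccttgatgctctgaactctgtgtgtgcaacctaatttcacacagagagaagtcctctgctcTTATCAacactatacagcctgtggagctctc

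Per kilobase of exon, the most abundant of these genes without irradiation was Car2, the high-activity cytosolic carbonic anhydrase, at a mean of 553 CPM per kb in unirradiated mutants and 694 in unirradiated wild type. Alas2 came next, at 318 CPM per kb in unirradiated mutants and 552 in unirradiated wild type, then Slc4a1, at 249 in unirradiated mutants and 238 in unirradiated wild type. Car1, the abundant red cell carbonic anhydrase, was the fourth in both, at 201 CPM per kb in unirradiated mutants and 197 in unirradiated wild type. At the other end was Tmod1, at 4.87 in unirradiated mutants and 3.76 in unirradiated wild type, beside Trim58, at 7.16 in unirradiated mutants and 3.45 in unirradiated wild type. After irradiation the means at the top were those of Car2, Slc4a1, Slc25a37 and Alas2, in that order in wild type. Irradiated mutant replicate 2 had this order too, at 562, 155, 142 and 97.2 CPM per kb, while in replicate 1 Alas2 (1756 CPM per kb) lay above Slc25a37 (1292). Alas2 was the second in irradiated wild type replicate 2. Car1 ranked lower in irradiated wild type, at 55.4 CPM per kb, below 27 of the other 33 genes.

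The first question was how these genes differed between spleens taken 7 days after 4 Gy and unirradiated ones. This contrast carries the day and the sex-linked split with it. In wild type, 31 of the 33 genes were higher in both irradiated libraries than in both unirradiated ones, where 29.7% of all genes tested were higher without overlap. The median log2 fold change was 1.64 over the 33 genes and 0.09 over all genes. Haem enzymes, mitochondrial carriers, membrane skeleton, surface antigens and regulators all lay on the higher side, with medians of 0.98, 1.43, 1.58, 1.71 and 1.71. The exceptions were both cytosolic enzymes: Car1 was lower without overlap (27.8% of all genes were), and Bpgm overlapped.

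None of these differences passed the test. By edgeR's quasi-likelihood F test on all 8 libraries, with Benjamini-Hochberg adjustment over all 17327 genes, 0 of the 33 had an adjusted p under 0.05, against 0.0577% of all genes (0.0115% higher, 0.0462% lower). At an unadjusted p under 0.05, 5 of the 33 were higher and 0 lower, against 8.69% and 8.57% of all genes. DESeq2's Wald test passed 1 of them (5.42% of all genes) and limma-voom 0. With no filter on low counts edgeR passed 20 (5.35% of all genes). Fitted on the 4 wild type libraries alone, the same edgeR test passed 17 genes as higher and Car1 as lower, against 3.62% and 3.34% of 15902 genes. With all groups in the fit but either irradiated mutant library left out, 23 passed as higher and Car1 as lower, against 6.29% and 6.72% of all genes without replicate 1 and 6.98% and 7.19% without replicate 2. The number of calls in wild type thus differed between fits.

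In mutants all 33 fold changes were above 0 (32 with DESeq2's size factors or upper quartile scaling), with a median of 1.63 against 0.15 over all genes, but the libraries did not separate. Slc25a37 alone was higher without overlap, where 26.9% of all genes were, and 0 were lower without overlap (25.7% of all genes). 0 of the 33 passed the edgeR test (0.6% of all genes did, 0.254% higher and 0.346% lower), 5 were higher and 0 lower at an unadjusted p under 0.05 (13.4% and 8.7% of all genes), and DESeq2 passed 3 (9.17% of all genes) and limma-voom 0. With no filter on low counts edgeR passed 19 (7.27% of all genes). The direction of the median depended on which irradiated mutant library was used. Without replicate 2, edgeR passed 32 of the 33 as higher (11% of all genes), all except Car1, with a median of 2.37. Without replicate 1, it passed 0 as higher (4.82% of all genes) and 5 as lower (2.07%), namely Alas2, Epor, Bpgm, Car1 and Add2, with a median of -0.98.

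Markers of other cell types differed with irradiation as well. The 10 granulocyte markers summed to 212 and 167 CPM in irradiated mutants, 5751 and 11295 CPM in unirradiated mutants, 209 and 85.2 CPM in irradiated wild type and 1676 and 1434 CPM in unirradiated wild type. In mutants all 10 were lower without overlap (25.7% of all genes were), at a median of -5.54 on the log2 scale. By the edgeR test 9 passed as lower, against 0.346% of all genes. In wild type 9 of 10 were lower without overlap (27.8% of all genes were), with a median of -3.61, and 0 passed (0.0462% of all genes did as lower). All 10 B cell markers were lower without overlap in each genotype, beside the same shares of all genes, with medians of -2.10 in mutants and -1.89 in wild type. The part of these cells in the erythroid values was not tested.

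**Figure D2:**
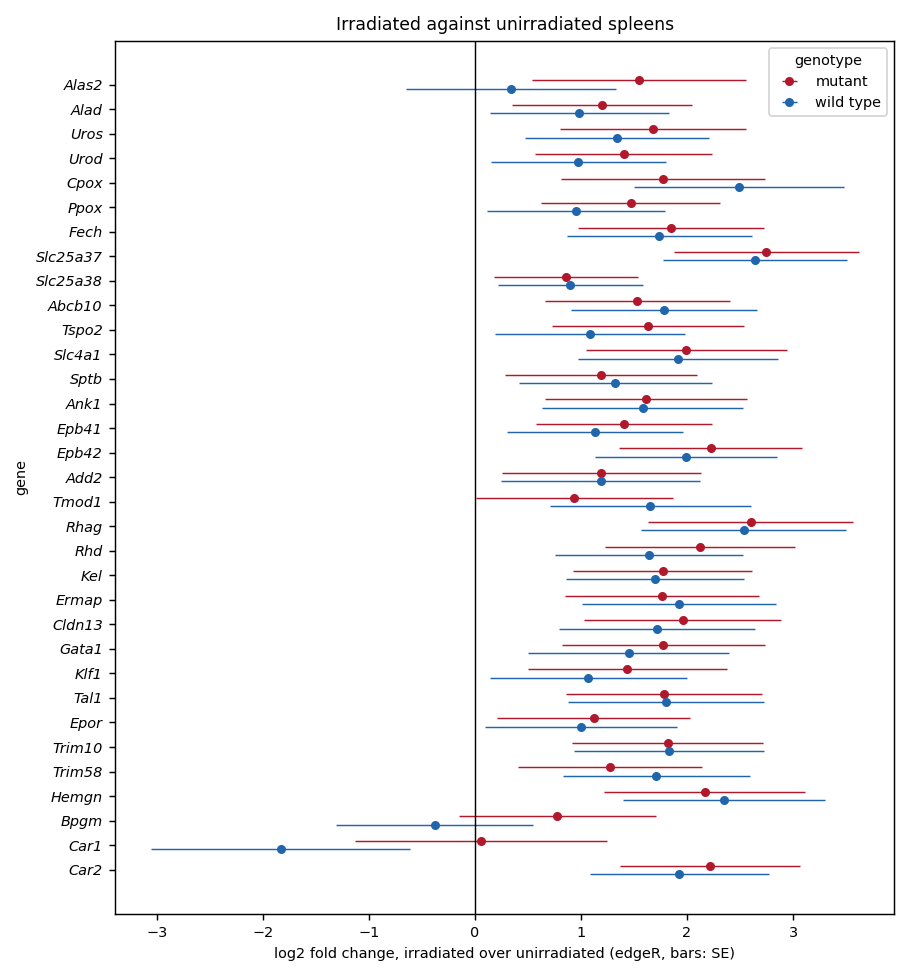
Log2 fold change of irradiated over unirradiated libraries for each of the 33 tested genes (rows, by role), in mutants and in wild type, with points for the edgeR estimate and bars for its standard error (2 libraries a group). Most estimates lie near 1 to 3 in both genotypes, and Car1 in wild type lies at -1.83. Those in mutants rest on 2 irradiated libraries a median of 11.3-fold apart, of which replicate 2 is the lowest of all 8 for 28 genes.

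Among the haem enzymes, coproporphyrinogen oxidase (Cpox, chr16:58670292-58717636 in GRCm38, plus strand) had the highest fold change in wild type with all 8 libraries. Cpox was at 1379 and 131 CPM in irradiated mutants, 249 and 194 CPM in unirradiated mutants, 1539 and 557 CPM in irradiated wild type and 237 and 136 CPM in unirradiated wild type. Both irradiated wild type libraries lay above every unirradiated one, while the irradiated mutants lay on either side of them. In wild type its log2 fold change was 2.49 ± 0.99 (SE), with an edgeR adjusted p of 0.264. Without irradiated wild type replicate 1 it was 1.56, below the 1.58 of Fech. Fech, which completes haem, was at 2119 and 203 CPM in irradiated mutants, 369 and 276 CPM in unirradiated mutants, 1184 and 984 CPM in irradiated wild type and 352 and 298 CPM in unirradiated wild type. Irradiated wild type again stood clear of the unirradiated libraries.

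Alas2, the erythroid enzyme of the first step (chrX:150547375-150570638, plus strand), did not follow Cpox and Fech. Alas2 was at 4219 and 234 CPM in irradiated mutants, 832 and 694 CPM in unirradiated mutants, 1530.2 and 1822 CPM in irradiated wild type and 1202 and 1449 CPM in unirradiated wild type. The wild type libraries did not overlap, but their gap was small beside that of the other genes, with a log2 fold change of 0.34 ± 0.99 (SE), the lowest of the 7 haem enzymes with all 8 libraries. Without irradiated wild type replicate 1, Alas2 was at 0.44 and Alad at 0.33. The exons of Alas2 overlap genes on the other strand over 15.5% of their length, and the sources used here do not say whether reads were counted by strand.

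The remaining enzymes, Alad, Uros, Urod and Ppox, are used for haem in every cell, as are Cpox and Fech. The log2 fold changes of these 4 in wild type were 0.95 to 1.34, below the 2.49 of Cpox. Each of the 4 was higher in both irradiated libraries. Urod, which decarboxylates uroporphyrinogen, was at 801 and 84.5 CPM in irradiated mutants, 166 and 169 CPM in unirradiated mutants, 521 and 347 CPM in irradiated wild type and 236 and 206 CPM in unirradiated wild type. Irradiated mutant replicate 2 lay below all other libraries for these 4 genes, and replicate 1 above all others.

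The iron carrier Slc25a37 (ENSMUSG00000034248.7, chr14:69241848-69285112, minus strand) had the largest fold change of the 33 in both genotypes. Slc25a37 was at 7778 and 853 CPM in irradiated mutants, 675 and 609 CPM in unirradiated mutants, 4900.2 and 4316 CPM in irradiated wild type and 788 and 689 CPM in unirradiated wild type. It was the one gene for which every irradiated library, replicate 2 of the mutants included, lay above every unirradiated library. The log2 fold change was 2.75 ± 0.87 (SE, edgeR adjusted p = 0.141) in mutants and 2.64 ± 0.87 (adjusted p = 0.209) in wild type.

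The other carriers had smaller fold changes. Slc25a38, the glycine carrier that feeds the first step, was at 269 and 45.5 CPM in irradiated mutants, 84.8 and 88.5 CPM in unirradiated mutants, 205 and 145 CPM in irradiated wild type and 102 and 86.1 CPM in unirradiated wild type. It had the smallest gap between the irradiated mutant libraries, 5.92-fold. Abcb10, which stabilises Slc25a37, and Tspo2, an erythroid relative of the mitochondrial translocator protein, were likewise higher in both irradiated wild type libraries and lowest in irradiated mutant replicate 2.

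Band 3, Slc4a1 (chr11:102348824-102366203, minus strand), exchanges chloride for bicarbonate and anchors the skeleton. Slc4a1 was at 8935 and 756 CPM in irradiated mutants, 1409 and 1029 CPM in unirradiated mutants, 5097 and 3652 CPM in irradiated wild type and 1435 and 889 CPM in unirradiated wild type. Irradiated wild type did not overlap unirradiated wild type, and the irradiated mutants spanned the whole range. Its log2 fold changes were 1.99 ± 0.95 (SE) in mutants and 1.91 ± 0.95 in wild type, with edgeR adjusted p of 0.262 and 0.332.

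Protein 4.2, Epb42 (chr2:121017891-121037072, minus strand), which binds band 3 and ankyrin, was at 1156 and 129.7 CPM in irradiated mutants, 166 and 109 CPM in unirradiated mutants, 622 and 453 CPM in irradiated wild type and 166 and 104 CPM in unirradiated wild type. Here irradiated mutant replicate 2 lay between the unirradiated libraries. The log2 fold change was 2.22 ± 0.87 (SE, edgeR adjusted p = 0.193) in mutants and 1.99 ± 0.86 (adjusted p = 0.289) in wild type. Beta spectrin (Sptb), ankyrin, protein 4.1 (Epb41), beta adducin (Add2) and the actin-capping tropomodulin Tmod1 were all higher in both irradiated wild type libraries, with fold changes of 1.13 to 1.65 on the log2 scale. Of the exonic bases of Tmod1, 32.6% overlap the gene Tstd2 on the other strand.

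The fold changes of the 5 tested surface antigens in wild type were 1.64 to 2.53 on the log2 scale. The Rh-associated glycoprotein Rhag (chr17:40811126-40840754, plus strand), which carries the Rh antigens to the membrane, was at 1430.5 and 121 CPM in irradiated mutants, 145 and 111 CPM in unirradiated mutants, 960.0 and 493 CPM in irradiated wild type and 152 and 99.4 CPM in unirradiated wild type. Both irradiated wild type libraries stood clear of every unirradiated one, and irradiated mutant replicate 2 lay among the unirradiated libraries. Its log2 fold change was 2.60 ± 0.97 (SE, edgeR adjusted p = 0.182) in mutants and 2.53 ± 0.97 (adjusted p = 0.253) in wild type. Rhd, Kel, Ermap and the mouse red cell claudin Cldn13 had the same order of groups in wild type.

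Icam4 could not be described. All 1110 of its exonic bases, 100% of its length on chromosome 9, overlap the antisense gene Gm47079 in the annotation, and its counts were 0 in every library.

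Among the regulators, the nuclear protein Hemgn (chr4:46393989-46413506, minus strand), a Gata1 target in erythroid cells, was at 1847 and 164 CPM in irradiated mutants, 259.8 and 189 CPM in unirradiated mutants, 1527 and 810.3 CPM in irradiated wild type and 280.1 and 178 CPM in unirradiated wild type. The irradiated wild type libraries stood clear of all unirradiated ones. Hemgn had a log2 fold change in wild type of 2.35 ± 0.95 (SE), with an edgeR adjusted p of 0.271.

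Gata1 (chrX:7959260-7978071, minus strand), the lineage's defining factor, was at 655 and 49.4 CPM in irradiated mutants, 90.3 and 115 CPM in unirradiated mutants, 443 and 222 CPM in irradiated wild type and 132 and 111 CPM in unirradiated wild type. Klf1 (chr8:84901928-84905291, plus strand), which activates the adult beta globin gene, was at 551 and 43.8 CPM in irradiated mutants, 116 and 103 CPM in unirradiated mutants, 376 and 189 CPM in irradiated wild type and 158 and 111 CPM in unirradiated wild type. Epor was at 299 and 23.8 CPM in irradiated mutants, 71.2 and 77.1 CPM in unirradiated mutants, 215 and 119.7 CPM in irradiated wild type and 94.1 and 73.6 CPM in unirradiated wild type. For all 3 the irradiated mutant libraries were the highest and the lowest of the 8. In wild type Epor (0.997 ± 0.91, SE) and Klf1 (1.07 ± 0.93) had the lowest fold changes of the regulators, and Tal1 (1.80) lay above Gata1 (1.45 ± 0.95).

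Trim10 and Trim58, tripartite motif proteins of erythroblasts, complete the regulators. Trim58 (chr11:58640465-58652404, plus strand), which helps to expel the nucleus, was the scarcest tested gene per kilobase in wild type, at 69.1 and 7.2 CPM in irradiated mutants, 19.7 and 11.7 CPM in unirradiated mutants, 29.6 and 20.1 CPM in irradiated wild type and 9.76 and 5.38 CPM in unirradiated wild type. Irradiated mutant replicate 1 stood highest, and irradiated mutant replicate 2 lay between the unirradiated wild type libraries.

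The cytosolic enzymes disagreed with one another. Car2 (chr3:14886273-14900770, plus strand) was at 11094 and 1362 CPM in irradiated mutants, 1466 and 1214 CPM in unirradiated mutants, 7559 and 5220.0 CPM in irradiated wild type and 1933 and 1427 CPM in unirradiated wild type. It was higher without overlap in irradiated wild type, and irradiated mutant replicate 2 stayed within the unirradiated range. The log2 fold change was 2.22 ± 0.85 (SE, edgeR adjusted p = 0.189) in mutants and 1.93 ± 0.84 (adjusted p = 0.291) in wild type.

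Car1 (chr3:14766216-14808368, minus strand), its neighbour on chromosome 3, was at 510.4 and 12.7 CPM in irradiated mutants, 272 and 231 CPM in unirradiated mutants, 88.7 and 49.5 CPM in irradiated wild type and 313 and 179.7 CPM in unirradiated wild type. It was lower in both irradiated wild type libraries than in every unirradiated library, and the irradiated mutants differed by 40.1-fold, the widest gap of the 33. For Car1 the log2 fold change was 0.06 ± 1.18 (SE, edgeR adjusted p = 0.981) in mutants, which turned below 0 with DESeq2's size factors or upper quartile scaling, and -1.83 ± 1.22 (adjusted p = 0.444) in wild type. Fitted on the wild type libraries alone it was -1.89 ± 0.41 (edgeR adjusted p = 0.0322).

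The ratio of Car1 to Car2 shows the parting within each library. It was 0.0460 and 0.00935 in irradiated mutant libraries, 0.185 and 0.190 in unirradiated mutant libraries, 0.0117 and 0.00949 in irradiated wild type libraries and 0.162 and 0.126 in unirradiated wild type libraries. All 4 irradiated libraries were below all 4 unirradiated ones, irradiated mutant replicate 1 included, although Car1 itself was highest there.

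Bpgm (chr6:34476207-34505613, plus strand), which makes the 2,3-bisphosphoglycerate that loosens oxygen from haemoglobin, was at 1189 and 92 CPM in irradiated mutants, 395 and 353 CPM in unirradiated mutants, 268 and 503 CPM in irradiated wild type and 410.5 and 593 CPM in unirradiated wild type. Irradiated and unirradiated wild type overlapped, with a log2 fold change of -0.38 ± 0.93 (SE) and an edgeR adjusted p of 0.844.

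The second question was what the Lmna substitution did. Without irradiation, 12 of the 33 genes were above 0 and 21 below in mutants against wild type, with a median log2 fold change of -0.12 against -0.02 over all genes. By the edgeR test 0 of the 33 passed, as did 0% of all genes, and at an unadjusted p under 0.05 there were 0 members, against 1.8% of all genes higher and 0.439% lower. DESeq2 and limma-voom also passed 0 of the 33. Trim58 was higher without overlap (20.8% of all genes were) and 9 genes were lower (25% of all genes): Alas2, Alad, Uros, Urod, Ppox, Slc25a37, Tspo2, Rhd and Bpgm. Of these 9, 5 are haem enzymes, of 7 in the chain.

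None of those differences passed the test, and the size of their errors depended on the libraries in the fit. Alas2 averaged 763 ± 97.9 CPM in unirradiated mutants and 1325 ± 174 CPM in unirradiated wild type (SD, n = 2 each), a log2 fold change of -0.80 ± 0.99 (SE). That of Trim58 was 1.05 ± 0.87, of Rhd -0.46 ± 0.86 and of Urod -0.40 ± 0.82, each with an edgeR adjusted p of 1. Fitted on the 4 unirradiated libraries alone, the values were -0.77 ± 0.21 for Alas2 (edgeR adjusted p = 0.0927), 1.07 ± 0.32 for Trim58 (0.137), -0.44 ± 0.17 for Rhd (0.261) and -0.38 ± 0.16 for Urod (0.289). Granulocyte markers moved with this comparison: 10 of them summed to 5751 and 11295 CPM in unirradiated mutants and 1676 and 1434 CPM in unirradiated wild type. All 10 B cell and all 10 T cell markers were lower in mutants without overlap (25% of all genes were), with medians of -0.76 and -0.53. Of 10 macrophage markers, 3 were higher and 2 lower without overlap (20.8% and 25% of all genes). The part of these cells in the share taken by erythroid genes was not tested.

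After irradiation the genotypes overlapped in every gene. Of the 33, 18 were above 0 and 15 below in irradiated mutants against irradiated wild type, with a median of 0.03 against 0.02 over all genes. 0 genes were free of overlap in either direction, against 10.4% higher and 7.46% lower of all genes, and 0 passed the edgeR test (0% of all genes). At an unadjusted p under 0.05 there were again 0 members (3.36% higher and 0.652% lower of all genes), and 0 passed by DESeq2 or limma-voom. The 4 with the smallest p were Car1 (1.92 ± 1.23, SE), Bpgm (0.73 ± 0.93), Trim58 (0.61 ± 0.86) and Cpox (-0.47 ± 0.94), each with an edgeR adjusted p of 1.

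This comparison also turned on a single library. Without irradiated mutant replicate 1, edgeR passed 32 of the 33 as lower in irradiated mutants (1.49% of all genes were, and 1.08% higher), with a median of -2.49 and a range of -2.96 to -1.75. Trim58 was the exception, at an adjusted p of 0.113. Without replicate 2, Car1 passed as higher, at 2.82 ± 0.42 (SE, edgeR adjusted p = 0.0203; 0.4% of all genes were higher), and the median was 0.84, with a range of 0.34 to 2.82.

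**Figure D3:**
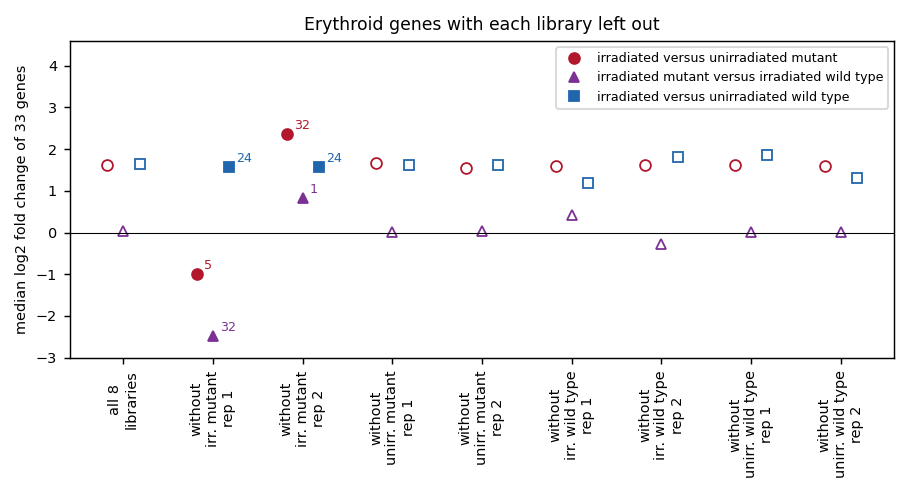
Median log2 fold change of the 33 tested genes in each comparison, with all 8 libraries and with each library left out in turn, and the number of genes past the edgeR threshold. Leaving out irradiated mutant replicate 1 or 2 takes the median in irradiated mutants against irradiated wild type to -2.49 or 0.84. Where a compared group kept a lone library, the number of genes rests on the spread of the other groups.

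The marker lists moved with this split as well. In irradiated mutant replicate 1 and 2, 10 stromal genes summed to 509 and 1832 CPM, 9 adipose genes to 94.5 and 1026 CPM, 10 T cell genes to 183 and 1387 CPM and 10 B cell genes to 89.2 and 1217 CPM. In irradiated wild type the stromal sums were 408 and 959.6 CPM and the adipose sums 27.3 and 128 CPM. Irradiated mutant replicate 2 was above all other libraries on the stromal, adipose and T cell lists, with 0 of their genes at 0 counts. The 9 liver genes measured, all present in each irradiated library, summed to 482 and 60.5 CPM in irradiated mutants and 94.2 and 96.7 CPM in irradiated wild type, and to at most 0.977 CPM in any unirradiated library, where 5 to 7 of them were at 0. In mutants globin transcripts too were highest in irradiated replicate 1 and lowest in irradiated replicate 2, with 146931 and 12123 CPM in irradiated mutants, 16855 and 17531 CPM in unirradiated mutants, 51683 and 65990.3 CPM in irradiated wild type and 22496 and 42555 CPM in unirradiated wild type. The part of tissue makeup in the erythroid levels was not tested.

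The difference between the genotypes in their response to irradiation was tested directly. Its median over the 33 genes was 0.11, with 23 above 0 and 10 below, and 0 passed the edgeR test (0% of all genes). At an unadjusted p under 0.05 there were 0 members (1.09% higher and 0.508% lower of all genes), and 0 passed by DESeq2 or limma-voom. Smallest in p were Car1 (1.89 ± 1.69, SE), Alas2 (1.21 ± 1.40), Bpgm (1.16 ± 1.31) and Tmod1 (-0.72 ± 1.31), each with an adjusted p of 1. The irradiated comparisons share libraries with one another, and this value is built from all 4 groups.

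The third question was whether genes of early and late erythroid cells moved apart. The early genes were Gata1, Tal1, Klf1, Epor, Car1 and Car2, and the late genes were Alas2, Slc4a1, Epb42, Trim10, Trim58, Tspo2, Bpgm, Slc25a37, Fech and Tmod1. The irradiation medians were 1.61 for early and 1.72 for late genes in mutants, and 1.26 and 1.72 in wild type. In each library the mean log2 CPM of the late genes minus that of the early genes was 0.20 and 0.50 in irradiated mutant libraries, 0.09 and -0.26 in unirradiated mutant libraries, 0.07 and 0.67 in irradiated wild type libraries and -0.30 and -0.13 in unirradiated wild type libraries. The groups averaged 0.35 ± 0.22, -0.08 ± 0.25, 0.37 ± 0.43 and -0.22 ± 0.12 (SD, n = 2 each).

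The difference was higher in irradiated wild type libraries than in unirradiated wild type libraries and in irradiated than in unirradiated mutant libraries, in each case without overlap, but the irradiated wild type libraries lay as far from each other as the group means did. Set against Gata1, Tal1, Klf1 and Epor only, the late genes were higher by 0.87 and 0.99 in irradiated mutant libraries, 0.94 and 0.49 in unirradiated mutant libraries, 0.40 and 1.09 in irradiated wild type libraries and 0.51 and 0.62 in unirradiated wild type libraries. On that measure irradiated and unirradiated libraries overlapped in both genotypes. Of the 2 early genes left out, Car1 was lower and Car2 higher relative to the mean of the 33 genes in all irradiated libraries than in all unirradiated ones. The irradiated mutant libraries, 11.3-fold apart in level, differed less on this measure than the irradiated wild type pair.

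**Figure D4:**
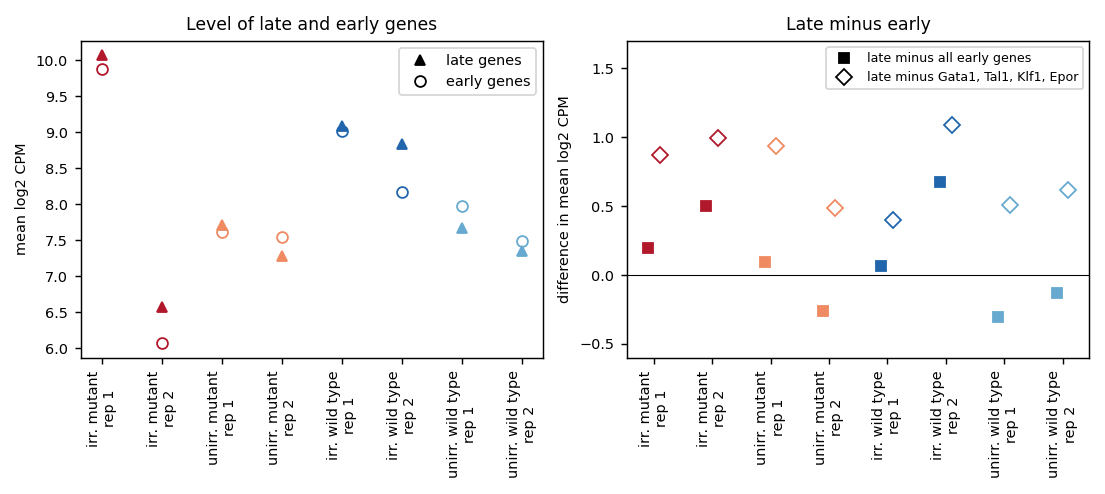
Left, mean log2 CPM of the 10 late and the 6 early erythroid genes in each of the 8 libraries. Right, the late mean minus the early mean over all 6 early genes (0.20 and 0.50 in irradiated mutants) and over Gata1, Tal1, Klf1 and Epor only, where irradiated and unirradiated libraries overlap.

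Since the level of all the genes differed so much between libraries, each gene was also set against the mean log2 CPM of the 33 in its own library. On this scale the irradiated mutant replicates can be read side by side. Irradiated libraries of both genotypes lay above unirradiated ones without overlap for 12 genes: Cpox, Fech, Slc25a37, Slc4a1, Epb42, Rhag, Rhd, Kel, Ermap, Tal1, Car2 and Hemgn (1.23% of all genes did). They lay below for 4 (4.59% of all genes), Car1, Bpgm, Epor and Add2, and overlapped for 17, Alas2, Gata1 and Klf1 among them. The mean subtracted was 9.93 in irradiated mutant replicate 1 and 6.44 in replicate 2. Genes that do not share this gap are spread apart by the subtraction and so overlap more readily. The shares of all genes are therefore not a like comparison for the 33.

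Slc25a37 was 2.99 and 3.30 above the mean in irradiated mutant libraries, 1.84 and 1.92 in unirradiated mutant libraries, 3.05 and 3.48 in irradiated wild type libraries and 1.90 and 2.11 in unirradiated wild type libraries. Rhag was at 0.55 and 0.48 in irradiated mutant libraries, -0.38 and -0.53 in unirradiated mutant libraries, 0.70 and 0.35 in irradiated wild type libraries and -0.48 and -0.69 in unirradiated wild type libraries. For both, irradiated mutant replicate 2, the library with the least erythroid RNA, lay with the other irradiated libraries and not with the unirradiated ones.

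Car1 was at -0.94 and -2.76 in irradiated mutant libraries, 0.52 and 0.52 in unirradiated mutant libraries, -2.73 and -2.96 in irradiated wild type libraries and 0.57 and 0.17 in unirradiated wild type libraries. Irradiated mutant replicate 1 stood between the other irradiated libraries and the unirradiated ones. Bpgm was at 0.28 and 0.08 in irradiated mutant libraries, 1.06 and 1.13 in unirradiated mutant libraries, -1.14 and 0.38 in irradiated wild type libraries and 0.96 and 1.89 in unirradiated wild type libraries. Alas2 was at 2.11 and 1.43 in irradiated mutant libraries, 2.14 and 2.11 in unirradiated mutant libraries, 1.37 and 2.24 in irradiated wild type libraries and 2.51 and 3.18 in unirradiated wild type libraries, and its irradiated and unirradiated libraries overlapped. The mean of the 33 is itself made of these genes, so a gene above it places others below, and no test was made on this scale.

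**Figure D5:**
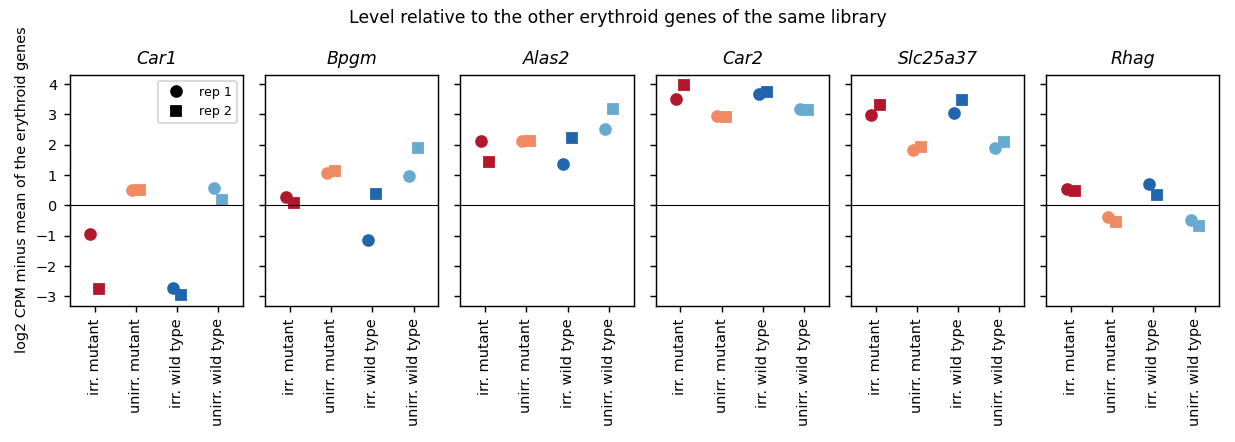
Log2 CPM of Car1, Bpgm, Alas2, Car2, Slc25a37 and Rhag minus the mean log2 CPM of the 33 erythroid genes in the same library, for the 8 libraries. Slc25a37, Rhag and Car2 lie higher and Car1 and Bpgm lower in all irradiated libraries than in all unirradiated ones, irradiated mutant replicate 2 included.

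Another 69 genes of red cell formation were read from a list of haem and iron, membrane, regulator, maturation and progenitor genes. By the edgeR test 0 of the 69 passed in any of the 5 comparisons. In wild type 57 were above 0 with irradiation, with a median of 1.15, and 49 were higher and 9 lower without overlap, where 29.7% and 27.8% of all genes were. In mutants 58 were above 0, with a median of 1.30, and 10 were higher and 8 lower without overlap, both smaller shares than the 26.9% and 25.7% of all genes. At an unadjusted p under 0.05 by edgeR, 12 were higher and 2 lower in wild type, against 8.69% and 8.57% of all genes. In mutants 21 were higher and 4 lower, against 13.4% and 8.7%. Without irradiation 31 of the 69 were above 0 in mutants against wild type, and after irradiation 45.

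The transferrin receptor Tfrc, the entry for iron, was at 8499.8 and 739.6 CPM in irradiated mutants, 627 and 538 CPM in unirradiated mutants, 4823 and 2664 CPM in irradiated wild type and 1039.5 and 745 CPM in unirradiated wild type. Its log2 fold change was 2.99 ± 0.98 (SE, edgeR adjusted p = 0.149) in mutants and 2.07 ± 0.95 (adjusted p = 0.306) in wild type. Alas1, the form of the first enzyme used outside the erythroid lineage, went the other way, at 12.5 and 26.1 CPM in irradiated mutants, 37.0 and 69.0 CPM in unirradiated mutants, 16.5 and 29.1 CPM in irradiated wild type and 31.3 and 32.5 CPM in unirradiated wild type. Both irradiated groups lay below their unirradiated counterparts, with a log2 fold change of -1.45 ± 0.48 (SE, edgeR adjusted p = 0.15) in mutants.

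Among the other membrane genes, Art4, which carries the Dombrock antigen in humans, was at 247 and 34.0 CPM in irradiated mutants, 26.5 and 17.6 CPM in unirradiated mutants, 127 and 109.6 CPM in irradiated wild type and 31.4 and 19.8 CPM in unirradiated wild type. All 4 irradiated libraries were above all 4 unirradiated ones. The log2 fold change was 2.67 ± 0.80 (SE, edgeR adjusted p = 0.128) in mutants and 2.21 ± 0.79 (adjusted p = 0.234) in wild type. Among regulators and maturation genes, Foxo3, a factor of late erythroblasts, and Cpeb4, which represses translation in them, had the same pattern. Cpeb4 was at 902 and 153 CPM in irradiated mutants, 119 and 85.8 CPM in unirradiated mutants, 630.3 and 420 CPM in irradiated wild type and 94.0 and 62.2 CPM in unirradiated wild type. Its log2 fold change was 2.37 ± 0.75 (SE, edgeR adjusted p = 0.141) in mutants and 2.75 ± 0.76 (adjusted p = 0.174) in wild type. All 14 maturation genes were above 0 in each genotype, with medians of 1.86 in mutants and 1.29 in wild type. The 15 regulators of this list were mixed, with 9 above 0 and 6 below in wild type and 10 and 5 in mutants. In wild type 7 were higher and 4 lower without overlap (29.7% and 27.8% of all genes). In mutants 1 was higher and 3 lower (26.9% and 25.7%). Stat5a and Stat5b were lower without overlap in both genotypes.

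The 4 progenitor genes were mixed, with irradiation medians of -0.59 in mutants and -0.13 in wild type. Muc13 was at 0.117 and 0.664 CPM in irradiated mutants, 4.06 and 6.79 CPM in unirradiated mutants, 0.721 and 0 CPM in irradiated wild type and 4.97 and 4.68 CPM in unirradiated wild type, with adjusted p of 0.125 in mutants and 0.188 in wild type by edgeR. Gata2, which precedes Gata1 in progenitors, was higher without overlap in wild type, at 13.0 and 6.70 CPM in irradiated mutants, 7.02 and 8.70 CPM in unirradiated mutants, 10.01 and 13.1 CPM in irradiated wild type and 7.03 and 7.15 CPM in unirradiated wild type. Kit, the receptor for stem cell factor, was at 19.7 and 30.5 CPM in irradiated mutants and 33.9 and 34.1 CPM in unirradiated mutants, lower without overlap. In wild type it overlapped, at 26.0 and 39.8 CPM in irradiated libraries and 34.8 and 26.6 CPM in unirradiated ones. Myb was lower without overlap in both genotypes. It was at 36.1 and 31.8 CPM in irradiated mutants and 52.6 and 61.7 CPM in unirradiated mutants. In wild type it was at 49.8 and 39.1 CPM in irradiated libraries and 59.9 and 54.6 CPM in unirradiated ones. The 10 cell cycle genes followed the erythroid level, with sums of 9142 and 1428 CPM in irradiated mutants, 2537 and 2191 CPM in unirradiated mutants, 7218 and 3747 CPM in irradiated wild type and 2219.8 and 1501 CPM in unirradiated wild type. Platelet and megakaryocyte genes, a lineage that shares Gata1 and Tal1, summed to 146 and 79.9 CPM in irradiated mutants, 432 and 712 CPM in unirradiated mutants, 114 and 114 CPM in irradiated wild type and 479 and 557 CPM in unirradiated wild type, the opposite order to the erythroid genes in wild type.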

How the data were processed

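Poly(A) RNA of whole spleen was sequenced in 8 libraries. The deposited table holds raw counts of reads per gene. The submitters' processing notes name Trim Galore, Subread and featureCounts, and the builds mm10 and hg38. The sources used here give neither strand setting nor annotation. A growth protocol in the labels describes human cells and was not used. Symbols and coordinates came from the GENCODE M21 annotation of GRCm38, in which 52489 of 52636 identifiers were matched and 147 were not.

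Counts were fitted with edgeR 4.0.16 (R 4.3.3, limma 3.58.1, DESeq2 1.42.0): filterByExpr with a minimum count of 10 and total of 15, TMM scaling, 1 term per group, no block, 4 residual degrees of freedom, quasi-likelihood F test, Benjamini-Hochberg adjusted p over 17327 genes, threshold 0.05. CPM on the log2 scale used a prior count of 2. Standard errors are the log2 fold change over the square root of F. The common dispersion was 0.152. The script was run on simulated data with a lower dispersion, equal in all groups, so that run does not measure how the test performs on these libraries.

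Every gene of the list is described by role, and full statistics went to the 4 genes with the smallest p in each comparison, since none passed, and up to 4 of each other list; further values named in the text were chosen after they were seen. The members and lists were chosen with earlier results of these data known, and no list was given a p of its own. Alternatives were other scalings, filters and tests, a fit to the groups compared only, a replicate block, and each library left out.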

Additional observations from a re-analysis of the deposited data

How the results depend on the processing

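The number of the 33 genes past the threshold was 0 in all 5 comparisons with DESeq2's size factors, upper quartile scaling, limma-voom, a stricter filter and a replicate block. It was 1 in irradiated mutants against irradiated wild type with no filter on low counts (0.569% of all genes). For irradiation in wild type it was 1 with DESeq2's Wald test, 20 with no filter (19 higher and 1 lower) and 18 on the groups compared alone (17 and 1). In mutants it was 3 with DESeq2 and 19 with no filter. Of the 69 other genes, DESeq2 passed 2 in wild type and 12 in mutants, no filter 26 and 34, and the wild type libraries alone 25. Of all genes, DESeq2 passed 5.42% in wild type and 9.17% in mutants, no filter 5.35% and 7.27%, and the wild type libraries alone 3.62% as higher and 3.34% as lower. With 1 library left out, a fit that assumes a lone library to vary like the other groups, the members' counts ranged from 0 to 32 in irradiated mutants against irradiated wild type, 0 to 24 for irradiation in wild type and 0 to 32 in mutants, and were 0 throughout for the unirradiated genotypes and for the difference between responses. Those of the other genes ranged from 0 to 32, 0 to 36 and 0 to 53 in the same comparisons. Calls came only where irradiated mutant replicate 1 or 2 was left out.

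The same-numbered libraries deviated together to unlike degrees, with correlations that were all positive, from 0.0349 to 0.465. No label pairs them, and the main fit did not. Replicate 1 was the higher for most of the 33 genes in every group, as a hint from the data. With the block 0 members and 0 other genes passed, against 16 of all genes for irradiation in wild type and 253 in mutants. Without the block 10 and 104 of all genes passed in these comparisons. With the median in place of the mean, late minus early was 1.17 in irradiated mutants, 0.77 in unirradiated mutants, 1.09 in irradiated wild type and 0.71 in unirradiated wild type. Without Fech, Slc25a37, Car1 and Car2 it was 0.43 in irradiated mutants, 0.38 in unirradiated mutants, 0.20 in irradiated wild type and 0.21 in unirradiated wild type. With either library of a group left out it was 0.20 to 0.50 in irradiated mutants, -0.26 to 0.09 in unirradiated mutants, 0.07 to 0.67 in irradiated wild type and -0.30 to -0.13 in unirradiated wild type.

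Directions reversed in irradiated mutants against irradiated wild type with limma-voom for Bpgm (-0.072) and Trim58 (-0.37). With a library left out they ranged from -2.40 to 2.82 for Car1, -2.03 to 1.56 for Bpgm, -1.75 to 1.42 for Trim58 and -2.96 to 0.43 for Cpox. For irradiation in mutants the ranges were -0.13 to 3.33 for Rhag, -0.030 to 2.90 for Car2 and -0.14 to 2.92 for Epb42, and for the difference between responses -2.44 to 2.78 for Car1, -1.62 to 1.96 for Bpgm, -2.03 to 2.04 for Alas2 and -3.27 to 0.089 for Tmod1. The cause was not tested.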
